A study of Ovis aries with 12 samples.

Results

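The subiculum is the output field of the hippocampus. It lies between CA1 and the entorhinal cortex, and its glutamatergic neurons carry hippocampal signals to cortex, thalamus, hypothalamus and septum. Its dorsal and ventral parts have different targets, and in rodents some genes mark its neurons or a part of it. The 6 genes described here, NTNG1, SLC17A6, NTS, TSHZ2, TLE4 and FN1, are used as such markers. They were picked by symbol from the 33609 rows of the deposited count table, each symbol matched 1 row, and all 6 were among the 17806 genes with counts high enough to be tested. No sequence of these genes or their products was available for display.

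The tissue came from 12 grown Ile-de-France sheep, all female, of which 6 had undergone chronic stress and 6 served as controls. The groups were dorsal hippocampus of stressed ewes, dorsal hippocampus of control ewes, ventral hippocampus of stressed ewes and ventral hippocampus of control ewes. RNA of 2 ewes was combined in equal amounts for each library, which gave 3 libraries in each of the 4 groups. Both regions came from the same 12 ewes, so the p-values between regions treat as independent pools that share animals. The study's design names these comparisons, while no label tells the kind or duration of the stress. The series record abbreviates dorsal hippocampus as DG, and how far each dissection reached into the subiculum is not stated.

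Library totals ran from 12254743 to 53775720 counts. The libraries differed along a common gradient within groups: the first principal component over all tested genes (50.04% of the variance) ran across the groups, and the second (18.9%) parted the regions. Dorsal stress 1, dorsal control 1 and ventral control 1 stood at the low end of the first component (-70.2, -81.3 and -103), and dorsal stress 3, ventral stress 3 and ventral control 3 at the high end (64.0, 80.8 and 105). Results that rest on these libraries are given with and without them. In bulk tissue, fewer cells of a type and less RNA per cell cannot be told apart.

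Levels below are CPM, counts scaled to a common library size with trimmed-mean-of-M-values factors. Fold changes are log2 values with their standard error (SE), dorsal over ventral or stress over control. Tests were edgeR's quasi-likelihood tests, with Benjamini-Hochberg adjustment across the whole table, and an adjusted p under 0.05 counted as a call. Between regions, NTNG1, SLC17A6, TSHZ2 and NTS, 4 of the 6 genes, fell in dorsal relative to ventral hippocampus. None was higher, and FN1 and TLE4 were not called. Among all tested genes 4.51% were called in this comparison, 3.07% lower and 1.44% higher in dorsal tissue. At an unadjusted p under 0.05 there were 5 of the 6 genes, against 13.7% of all tested genes. The median log2 fold change was -2.07 over the 6 genes and -0.02 over all tested genes. The 6 genes were chosen with earlier results of these data known, so their count is a description.

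**Figure D1:**
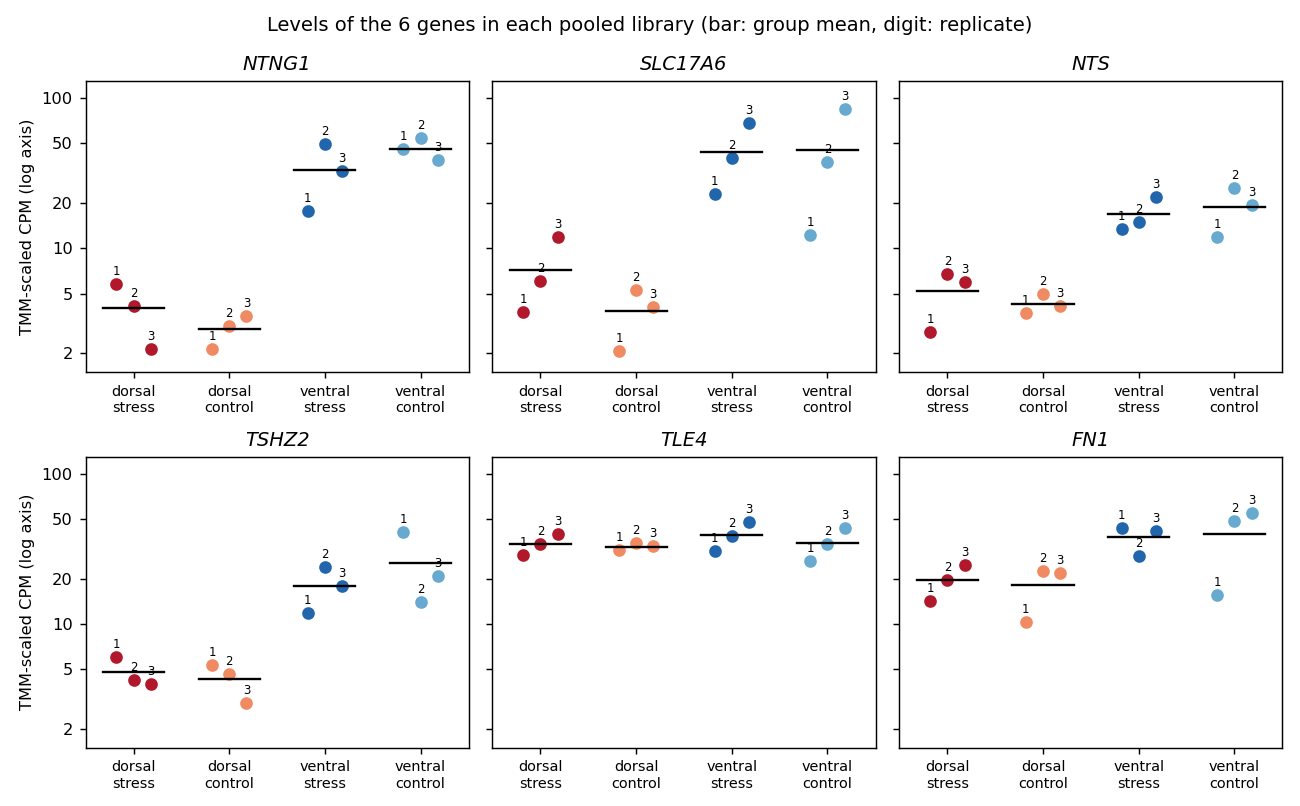
Each panel plots 1 gene, with the CPM of every library on a log axis against the 4 groups; points are libraries with their replicate number and bars are group means. For NTNG1, SLC17A6, NTS and TSHZ2 all 6 dorsal libraries lie below all 6 ventral ones, while the regions overlap for TLE4 and FN1.

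NTNG1 encodes netrin-G1, a membrane-anchored adhesion protein of axons that binds the ligand NGL-1 on the dendrites of partner neurons. In dorsal hippocampus it had 5.77, 4.16 and 2.12 CPM in stress libraries 1 to 3 and 2.13, 3.04 and 3.56 CPM in control libraries 1 to 3. In ventral hippocampus it had 17.8, 49.3 and 32.9 CPM under stress and 45.6, 54.4 and 38.5 CPM in controls. The highest dorsal library was dorsal stress 1 and the lowest ventral one was ventral stress 1, and the regions did not overlap. The log2 fold change was -3.52 ± 0.32 (edgeR adjusted p = 0.000452), an 11.4-fold lower level in dorsal tissue with a 95% interval of -4.22 to -2.81. It ranked at place 15 of all tested genes by p-value. The shallowest dorsal library, dorsal stress 3, held 26 counts of it.

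SLC17A6 encodes the vesicular glutamate transporter VGLUT2, which loads glutamate into synaptic vesicles. In the rodent forebrain it is known mainly from thalamic and other subcortical neurons, whereas most hippocampal pyramidal cells use VGLUT1. Dorsal hippocampus had 3.78, 6.03 and 11.8 CPM in stress libraries 1 to 3 and 2.07, 5.28 and 4.06 CPM in control libraries 1 to 3. Ventral hippocampus had 22.8, 40.1 and 67.9 CPM under stress and 12.2, 37.6 and 85.2 CPM in controls. The gap between regions was narrow, since dorsal stress 3 reached 11.8 CPM and ventral control 1 stood at 12.2 CPM. The log2 fold change was -3.08 ± 0.52 (edgeR adjusted p = 0.00778), 8.48-fold lower in dorsal tissue, with an interval of -4.23 to -1.93. Its SE was the largest of the 6 genes. Within ventral controls the level spanned a 6.99-fold range, and in each of the 4 groups replicate 1 was the lowest library.

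NTS encodes the precursor of neurotensin and neuromedin N, peptides that act on neurotensin receptors. In rodents neurons of the subiculum are among those that make it. Its dorsal levels were 2.79, 6.74 and 5.97 CPM in stress libraries 1 to 3 and 3.68, 4.97 and 4.14 CPM in control libraries 1 to 3. Its ventral levels were 13.4, 15.1 and 22.0 CPM under stress and 11.9, 25.1 and 19.4 CPM in controls. Every ventral library stood above every dorsal one, with the highest dorsal value in dorsal stress 2 and the lowest ventral value in ventral control 1. The log2 fold change was -1.92 ± 0.27 (edgeR adjusted p = 0.00367), 3.79-fold lower in dorsal tissue, with an interval of -2.52 to -1.32.

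TSHZ2 is a zinc-finger homeobox transcription factor of the teashirt family. It had 6.02, 4.26 and 4.004 CPM in dorsal stress libraries 1 to 3 and 5.34, 4.68 and 2.97 CPM in dorsal control libraries 1 to 3. The ventral values were 11.8, 23.8 and 18.04 CPM under stress and 40.9, 14.1 and 21.0 CPM in controls. The dorsal libraries lay close together, while the ventral ones ran from 11.8 CPM in ventral stress 1 to 40.9 CPM in ventral control 1. The log2 fold change was -2.23 ± 0.30 (edgeR adjusted p = 0.00307), 4.68-fold lower in dorsal tissue, with an interval of -2.90 to -1.55.

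TLE4 is a corepressor of the Groucho family and, in rodent neocortex, a marker of deep-layer neurons that project to the thalamus. It had 28.8, 34.1 and 40.0 CPM in dorsal stress libraries 1 to 3 and 31.0, 34.6 and 32.8 CPM in dorsal control libraries 1 to 3. Ventral libraries had 30.5, 38.5 and 47.7 CPM under stress and 26.4, 34.1 and 43.5 CPM in controls. The regions overlapped over most of their range. The log2 fold change was -0.13 ± 0.17 (edgeR adjusted p = 0.986), with a 95% interval of -0.50 to 0.24. The intervals of the 4 called genes lay wholly below this one.

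FN1 encodes fibronectin, a matrix glycoprotein that binds integrins. It marks pyramidal neurons of the mouse subiculum and is also made by blood vessel cells and fibroblasts. Its dorsal levels were 14.2, 19.6 and 24.7 CPM in stress libraries 1 to 3 and 10.3, 22.7 and 22.0 CPM in control libraries 1 to 3. Its ventral levels were 43.7, 28.5 and 41.8 CPM under stress and 15.6, 48.6 and 54.9 CPM in controls. All dorsal libraries lay below the ventral ones except that ventral control 1, at 15.6 CPM, fell inside the dorsal range. The log2 fold change was -1.04 ± 0.33 with an unadjusted p of 0.00896 and an edgeR adjusted p of 0.120, so FN1 did not pass. Without ventral control 1 it was called at -1.23 ± 0.25 (edgeR adjusted p = 0.0169), and without the 3 libraries at the low end of the first component at -0.995 ± 0.18 (edgeR adjusted p = 0.0254). DESeq2 also called it over all libraries (-1.03, adjusted p = 0.0276), and limma-voom did not (-0.996, adjusted p = 0.197).

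Groups that do not overlap give the same order. Every dorsal library was below every ventral library for 4 of the 6 genes and above for 0, against 2.93% and 1.97% of all tested genes. Within stressed ewes the dorsal libraries lay below the ventral ones for 5 of 6 genes, FN1 included, against 7.67% of all tested genes. Within control ewes this held for 4 of 6, against 6.22%.

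Within each condition the fold changes kept their sign for all 6 genes, with wider errors. In stressed ewes 1 of 6 genes was called lower, NTNG1 (-3.04 ± 0.45, edgeR adjusted p = 0.0203), against 0.359% of all tested genes called lower, 0.0842% higher and 0.444% in either direction. At an unadjusted p under 0.05 there were 4 of 6 in stressed ewes and 5 of 6 in control ewes, against 7.86% and 8.67% of all tested genes. TSHZ2 and NTS had -1.90 ± 0.43 and -1.71 ± 0.38 (edgeR adjusted p = 0.0965 for both; TSHZ2 0.0419 without ventral control 1) and SLC17A6 had -2.60 ± 0.72 (edgeR adjusted p = 0.186). DESeq2 called all 4 of these genes in stressed ewes. In control ewes 3 of 6 were called lower, against 0.753% of all tested genes called lower, 0.247% higher and 1.00% in either direction. They were NTNG1 (-3.99 ± 0.46, edgeR adjusted p = 0.00603), TSHZ2 (-2.55 ± 0.43, adjusted p = 0.0249) and NTS (-2.14 ± 0.39, adjusted p = 0.0322). SLC17A6, at -3.56 ± 0.75 in control ewes, had an edgeR adjusted p of 0.0558 and was called without ventral control 1 (-4.01 ± 0.64, adjusted p = 0.0178). It was also called in control ewes with the replicate block (adjusted p = 0.00323), the block within condition (0.0220) and DESeq2 (1.88e-05). FN1 had -0.96 ± 0.46 in stressed and -1.12 ± 0.46 in control ewes (edgeR adjusted p = 0.709 and 0.482). TLE4 had -0.18 ± 0.24 and -0.08 ± 0.24 (adjusted p = 1 for both).

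Calls within 1 condition could be lost with 1 library left out, while the estimates of the called genes kept their sign. NTNG1 then ran from -3.39 to -2.65 in stressed ewes and from -4.15 to -3.81 in control ewes. In control ewes TSHZ2 ran from -2.83 to -2.01 and NTS from -2.38 to -1.87. In stressed ewes NTNG1 lost its call without any of dorsal stress 1, 2 or 3 or ventral stress 2 or 3, with edgeR adjusted p-values between 0.0633 and 0.144. With the replicate block within condition NTNG1 also lost its call there (adjusted p = 0.0545) and SLC17A6 was called instead (adjusted p = 0.0428). In control ewes NTNG1 lost it without dorsal control 2 or 3 (adjusted p = 0.0568 and 0.0501). TSHZ2 lost it without dorsal stress 2 or any of the dorsal controls (highest adjusted p = 0.129), and NTS without any library other than dorsal stress 1, ventral stress 3 or ventral control 1 (highest adjusted p = 0.154). Over both conditions NTNG1, SLC17A6, NTS and TSHZ2 stayed called without each of the 12 libraries in turn, with adjusted p-values of at most 0.0340.

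**Figure D2:**
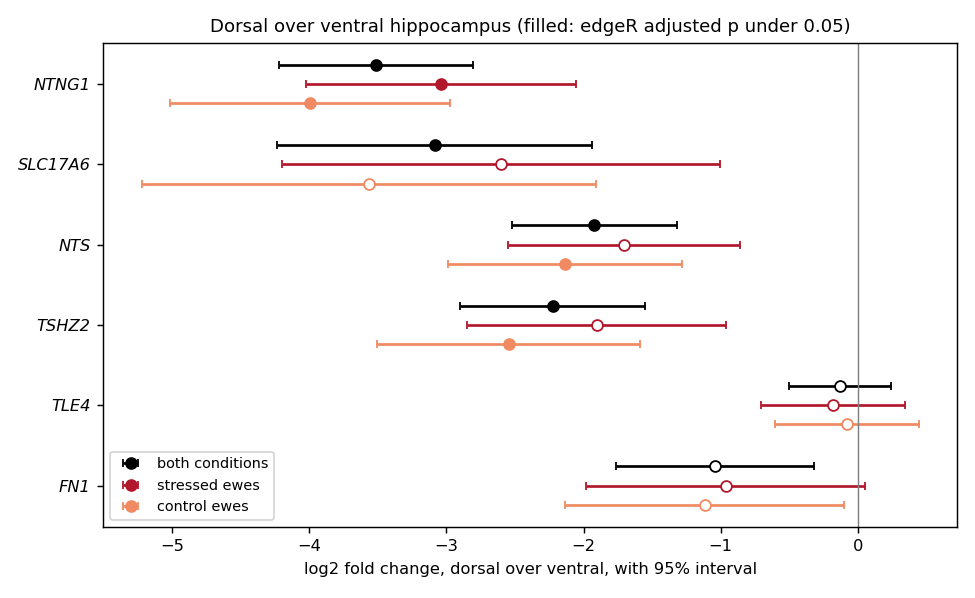
Points are log2 fold changes of dorsal over ventral hippocampus for each gene, over both conditions, in stressed ewes and in control ewes, with 95% intervals; filled points passed an edgeR adjusted p of 0.05. NTNG1 lies farthest to the left in all 3 comparisons, at -3.52, -3.04 and -3.99, and the TLE4 intervals span 0.

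Chronic stress was compared with control within each region and over both. In no such comparison was any of the 6 genes called, and none reached an unadjusted p under 0.05 in edgeR, DESeq2 or limma-voom. The stress libraries overlapped the control libraries of the same region for all 6 genes. In dorsal tissue, groups without overlap made up 2.38% of all tested genes with stress higher and 2.75% with stress lower. In ventral tissue they made up 1.38% and 1.49%. No gene at all was called by edgeR in these comparisons (0% of tested genes), and limma-voom called none either. At an unadjusted p under 0.05, edgeR had 152 genes in dorsal tissue (0.854%), 142 in ventral tissue (0.797%) and 308 averaged over regions (1.73%). Without ventral control 3 these unadjusted counts were 698 in ventral tissue and 920 over regions, with 0 genes called. DESeq2 called 1 gene in dorsal tissue, 1 in ventral tissue and 14 averaged over regions.

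In dorsal hippocampus the stress estimate of SLC17A6 was 0.92 on the log2 scale with a 95% interval of -0.62 to 2.46 and means of 7.22 ± 4.16 CPM in stressed and 3.81 ± 1.62 CPM in control ewes (SD, n = 3 each). It was 0.37 without dorsal stress 3 and ranged from 0.37 to 1.23 with 1 library left out. That of NTNG1 was 0.48 (-0.45 to 1.42), with 4.02 ± 1.83 CPM in stressed and 2.91 ± 0.72 CPM in control ewes, and ranged from 0.13 without dorsal stress 1 to 0.78 without dorsal stress 3. With the replicate number as a block, SLC17A6 in dorsal tissue had 0.81 ± 0.34 (edgeR unadjusted p = 0.0377, adjusted p = 1). The other 4 estimates lay between 0.06 and 0.27. These intervals are wide, and a change of up to 2.46 for SLC17A6 or 0.59 for TLE4 lies within them.

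In ventral hippocampus TSHZ2 and NTNG1 had the lowest estimates, -0.51 (-1.41 to 0.40) and -0.47 (-1.37 to 0.43). Without ventral control 1 the TSHZ2 estimate was 0.026, and with 1 library left out that of NTNG1 ran from -0.86 to -0.17. TSHZ2 averaged 17.9 ± 6.00 CPM in stressed and 25.4 ± 13.9 CPM in control ewes, and NTNG1 averaged 33.3 ± 15.8 CPM in stressed and 46.2 ± 7.99 CPM in control ewes (SD, n = 3 each). The remaining estimates lay between -0.16 and 0.16. Averaged over regions the 6 estimates ran from -0.18 to 0.44, with unadjusted p-values between 0.387 and 0.982. The stress effect in dorsal minus that in ventral tissue was 0.95 ± 0.59 for NTNG1 (edgeR unadjusted p = 0.134, adjusted p = 1), and the other genes had larger p-values. For this difference 46 of all tested genes (0.258%) had an unadjusted p under 0.05, or 134 without ventral control 3, and 0 were called, by DESeq2 as well.

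**Figure D3:**
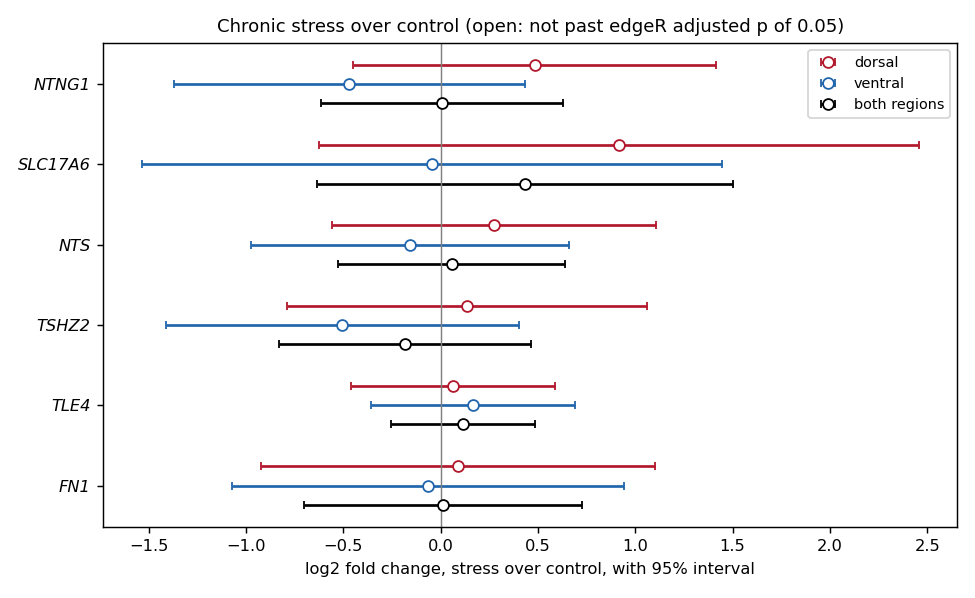
Points are log2 fold changes of stressed over control ewes for each gene in dorsal tissue, in ventral tissue and averaged over both, with 95% intervals; none passed an edgeR adjusted p of 0.05. Every interval spans 0, and those of SLC17A6 are the widest, from -0.62 to 2.46 in dorsal tissue.

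The genes differed in how their libraries scattered within groups. SLC17A6, TLE4, NTS and FN1 deviated from their group means together, and mostly with the first component. Over the 12 deviations from group means of log2 CPM, Pearson's r was 0.95 between SLC17A6 and TLE4, 0.81 between SLC17A6 and FN1, 0.74 between NTS and TLE4 and 0.73 between SLC17A6 and NTS. These values describe 12 libraries in which each gene shares its library's depth and scaling. TSHZ2 ran the other way against FN1 (r = -0.82), and NTNG1 had r between -0.19 and 0.29 with the other 5. In ventral control 1 SLC17A6 was 1.47 below its group mean on the log2 scale, FN1 1.15 below and TSHZ2 0.83 above, while NTNG1 was at its group mean.

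**Figure D4:**
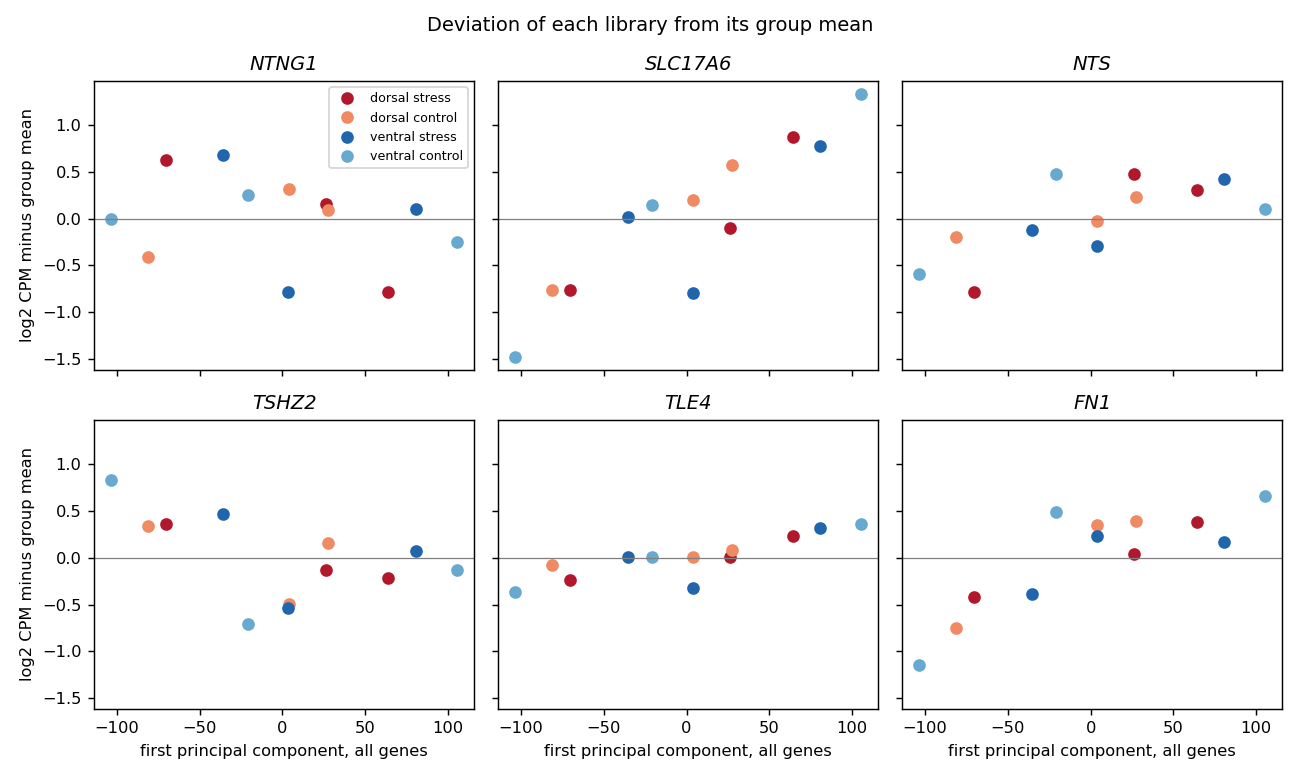
Each panel plots, for 1 gene, the log2 CPM of each library minus its group mean against the library's place on the first principal component of all genes, coloured by group. SLC17A6, TLE4 and FN1 rise from left to right, from deviations of -1.47, -0.36 and -1.15 in ventral control 1 to 1.33, 0.36 and 0.66 in ventral control 3.

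Genes with partners or relatives of the 6 were counted from lists of ligands, receptors, family members and enzymes. Of the 4 netrin-G partners 0 were called in either direction between regions. NGL-1 (LRRC4C), the ligand of netrin-G1, had -0.46 ± 0.22 (edgeR adjusted p = 0.395), and the sister gene NTNG2 had -0.41 ± 0.22 (adjusted p = 0.513). LRRC4, which encodes the netrin-G2 ligand NGL-2, had 0.05 ± 0.16 (adjusted p = 1). The list's median was -0.28, against -0.02 over all tested genes.

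Of 7 genes of glutamate transport and supply 0 were called. SLC17A7, which encodes VGLUT1, had 0.40 ± 0.15 (edgeR adjusted p = 0.209), and 0.52 without ventral control 1, where it was called (adjusted p = 0.0377). It averaged 1190 and 1096 CPM in dorsal stress and dorsal control, against 859 and 868 CPM in ventral stress and ventral control. The neuronal glutamate uptake transporter SLC1A1 had 0.37 ± 0.17 (adjusted p = 0.391) and the astrocytic SLC1A3 had -0.24 ± 0.16 (adjusted p = 0.705), and the list's median was -0.06. Neither TSHZ1 (0.22 ± 0.14) nor TSHZ3 (-0.48 ± 0.24), the relatives of TSHZ2, was called (edgeR adjusted p = 0.687 and 0.443).

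Of 10 tested genes of neurotensin reception, processing and breakdown, 2 were lower in dorsal tissue and 0 higher, with a median of -0.17. NTSR1, a receptor for neurotensin, had -1.83 ± 0.32 (edgeR adjusted p = 0.00981), with means of 0.317 and 0.319 CPM in dorsal stress and dorsal control, against 1.13 and 1.16 CPM in ventral stress and ventral control. It was scarce, with at most 63 counts in any library, and lost its call without the 3 libraries at either end of the first component (adjusted p of at most 0.0974). PCSK1, a convertase that cuts peptide precursors, had -1.41 ± 0.33 (adjusted p = 0.0366), with 23.8 and 22.5 CPM in the dorsal groups and 59.4 and 63.4 CPM in the ventral ones. PCSK1 lost its call in 11 of 22 alternative analyses, limma-voom among them (adjusted p of at most 0.130). The peptidase MME, which breaks down neuropeptides, had -1.08 ± 0.30 (adjusted p = 0.0807) and was called in 4 of the 22, DESeq2 among them.

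Of the 5 TLE relatives 0 were called, with TLE1 at 0.48 ± 0.20 (edgeR adjusted p = 0.281, or 0.0488 with the replicate block), TLE2 at -0.77 ± 0.39 (adjusted p = 0.464) and TLE3 at -0.13 ± 0.22 (adjusted p = 1). Of 9 genes of deep-layer projection neurons 1 was lower in dorsal tissue, the transcription factor FOXP2 (-1.70 ± 0.37, edgeR adjusted p = 0.0259), and 0 were higher, with a median of -0.31. FOXP2 had 2.48 and 2.51 CPM in the dorsal groups and 7.25 and 9.12 CPM in the ventral ones, and it lost its call in 9 of 22 alternative analyses (adjusted p of at most 0.0813). NR4A2 (-1.39 ± 0.37, adjusted p = 0.0618) and SOX5 (-1.16 ± 0.43, adjusted p = 0.213), transcription factors both, were not called. NR4A2 was called in 5 of 22 alternative analyses, DESeq2 and both replicate blocks among them, and SOX5 with the replicate block.

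Of 8 tested fibronectin receptors 1 was lower in dorsal tissue, the integrin subunit ITGA8 (-1.29 ± 0.30, edgeR adjusted p = 0.0343), and 0 were higher, with a median of -0.17. ITGA8 lost its call in 14 of 22 alternative analyses, limma-voom among them (adjusted p of at most 0.143). The syndecan SDC4 had -0.22 ± 0.11 (adjusted p = 0.462) and the integrin subunit ITGA4 had 0.96 ± 0.91 (adjusted p = 0.893). No gene of any of these lists was called for stress averaged over regions by edgeR.

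**Figure D5:**
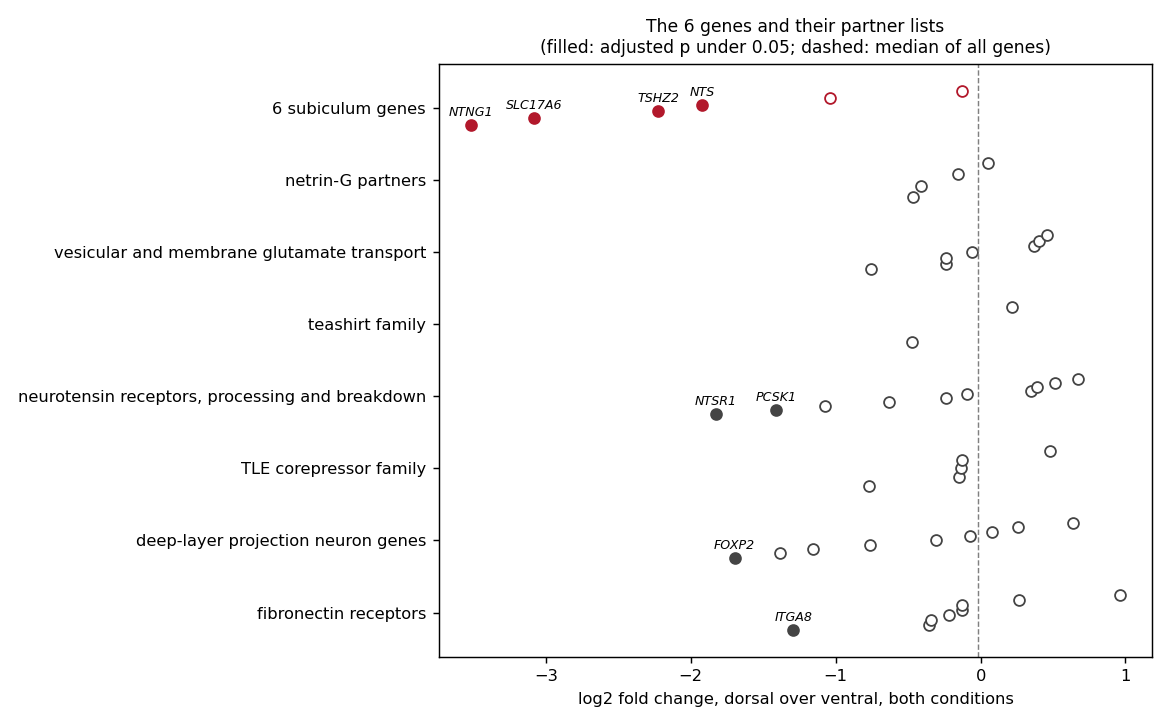
The top row holds the 6 genes, each further row is a partner list, and each point is a gene's log2 fold change of dorsal over ventral hippocampus over both conditions; filled points passed an edgeR adjusted p of 0.05 and the dashed line is the median of all tested genes (-0.02). In the partner lists NTSR1, PCSK1, FOXP2 and ITGA8 passed, with values from -1.83 to -1.29.

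Some of the 6 genes are expressed in tissue next to the hippocampus, and 4 marker lists of such tissue, which share some genes, were counted. The summed level of 4 tested thalamic markers was 49.1 to 60.7 CPM in dorsal stress and 48.4 to 61.1 CPM in dorsal control, against 81.6 to 104 CPM in ventral stress and 67.3 to 138 CPM in ventral control. Of these 4, 1 was lower in dorsal tissue, PRKCD (-1.47 ± 0.22, edgeR adjusted p = 0.00523). The thalamic transcription factor genes TCF7L2 (-0.24, adjusted p = 0.833) and LEF1 (-0.10, adjusted p = 1) were not called, RGS16 had 0.07 (adjusted p = 1), and GBX2 had at most 1 count in any library. The 6 amygdala markers summed to 84.9 to 97.4 CPM in dorsal stress and 71.9 to 89.4 CPM in dorsal control, against 145 to 206 CPM in ventral stress and 133 to 220 CPM in ventral control. Of these 6, 4 were lower in dorsal tissue, PENK, PRKCD, FOXP2 and MEIS2, and MEIS2 lost its call in 10 of 22 alternative analyses. The other two, RSPO2 and TSHZ1, had 0.86 and 0.22 (edgeR adjusted p = 0.135 and 0.687). Of 9 striatal markers 3 were lower in dorsal tissue, DRD1 and PENK among them, with a list median of -0.03. Their sums overlapped between regions, at 147 to 213 CPM in dorsal and 171 to 214 CPM in ventral libraries. Of 5 neocortical markers 0 were called, though all were lower in value in dorsal tissue, from -3.19 to -0.10, with a median of -0.76. Their sums also overlapped, at 60.8 to 95.5 CPM in dorsal libraries, against 93.4 to 205 CPM in ventral stress and 67.02 to 210.3 CPM in ventral control. Only ventral stress 1 and ventral control 1 fell inside the dorsal range, and the remaining ventral libraries had sums of at least 121.7 CPM. The part of neighbouring tissue in the SLC17A6, NTNG1, NTS and TSHZ2 differences was not tested.

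FN1 is also made outside neurons. Of 7 markers of meningeal fibroblasts 5 were called, all lower in dorsal tissue, with DCN at -2.01 ± 0.28 (edgeR adjusted p = 0.00337). COL1A1 lost its call in 7 of 22 alternative analyses, and COL3A1, not called here, was called in 8. Their summed level was 165 to 175 CPM in dorsal stress and 148 to 232 CPM in dorsal control, against 448 to 585 CPM in ventral stress and 336 to 576 CPM in ventral control. In ventral control 1, where FN1 was lowest among ventral libraries, this sum was the lowest of the ventral ones too. Dorsal control 1 had the lowest sum (148 CPM) and the lowest FN1 level (10.3 CPM) of all libraries. Ventral stress 2 and dorsal stress 1 did not keep this order. Ventral stress 2 had the highest sum of all (585 CPM) and the next lowest ventral FN1 level (28.5 CPM). Dorsal stress 1 had the highest sum of its group (175 CPM) and its lowest FN1 level (14.2 CPM). Of 8 endothelial markers 0 were called, with a median of -0.21 and sums of 190 to 291 CPM in dorsal stress, 204 to 283 CPM in dorsal control, 192 to 281 CPM in ventral stress and 178 to 370 CPM in ventral control. The part of these cells in the FN1 values was not tested.

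Markers of hippocampal cells were present in every library. The 5 CA1 markers summed to 138 to 177 CPM in dorsal stress and 95.5 to 133 CPM in dorsal control, against 235 to 343 CPM in ventral stress and 224 to 310 CPM in ventral control, and 1 of them was called, MPPED1 (-1.45, edgeR adjusted p = 0.000538). WFS1 was lower in value (-0.80) and FIBCD1 (1.43, adjusted p = 0.052) and POU3F1 (1.06) higher, none of them called. The 4 tested dentate granule cell markers overlapped between regions in their sum, at 57.9 to 147 CPM in dorsal and 56.3 to 123 CPM in ventral libraries, and 1 of them was called, DSP (-1.92, adjusted p = 0.0166). PROX1, DOCK10 and C1QL2 had 1.32, 0.60 and -0.39 and were not called, and the list's median was 0.10. General markers of excitatory neurons ran the other way from NTNG1, SLC17A6, NTS and TSHZ2, with 3 of 5 higher in dorsal tissue. They summed to 4181 to 4605 CPM in dorsal stress and 3775 to 3831 CPM in dorsal control, against 2381 to 3280 CPM in ventral stress and 2443 to 2867 CPM in ventral control. Choroid plexus markers were also higher in dorsal tissue in 3 of 6 tested genes, with sums of 376 to 980 CPM in dorsal stress and 669 to 2823 CPM in dorsal control, against 42.7 to 58.4 CPM in ventral stress and 38.0 to 417 CPM in ventral control. The data hold no separate measure of the subiculum, so whether these 6 genes mark it in the ewe cannot be told from them.

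Likeness of pattern was ranked over 12618 genes with a symbol and a mean log2 CPM of at least 1, by Pearson's r of log2 CPM over the 12 libraries. Since the libraries fall into 2 regions, a high r can come from the region difference alone, and it is given as a description. NTNG1 was most like CPLX3, NECTIN1 and DRD1 (r = 0.99, 0.98 and 0.98), and SLC17A6 most like MET, PLXNC1 and UNC13C (0.99, 0.99 and 0.98). NTS was most like NRSN1, GRM8 and FRAS1 (0.97, 0.97 and 0.96) and TSHZ2 most like CEP83, GALNT10 and BTBD11 (0.96 each). TLE4 was most like CD164, OTUD6B and CDS1 (0.98, 0.97 and 0.97) and FN1 most like MAGEL2, CD1D and DZANK1 (0.97 each).

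With the group means taken out, the nearest genes were others in nearly every case. CPLX3 (r = 0.91) stayed the nearest to NTNG1, followed by SPPL3 (0.85), and MAGEL2 stayed among the 3 nearest to FN1 (0.99), behind TTC7B and AJUBA (1.00 and 0.99). SLC17A6 was then nearest to GUCY1B1, EXOC8 and ADGRL2 (0.99 each), NTS to RSRC1, ALDH1A1 and CREB3L2 (0.94, 0.93 and 0.93), TSHZ2 to TMEM41A, NDUFB2 and TSC22D3 (0.94, 0.94 and 0.93) and TLE4 to MARK1, ZNRF2 and ARHGAP28 (0.99 each). CPLX3, NECTIN1 and DRD1 were themselves lower in dorsal tissue (-4.03, -0.91 and -3.53, edgeR adjusted p = 0.000259, 0.00393 and 0.000452). This was not particular to NTNG1. Of the genes most like the others by log2 CPM, MET, PLXNC1, UNC13C, NRSN1, GRM8, FRAS1, GALNT10 and BTBD11 were also lower (edgeR adjusted p of at most 0.0177). CEP83 and the genes most like TLE4 and FN1 were not called (edgeR adjusted p of at least 0.0898).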

How the data were processed

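RNA was extracted with TriReagent and made into TruSeq stranded mRNA libraries, per the labels' protocols. The authors deposited whole gene counts for 12 libraries. The submitters' processing notes name TopHat2 2.1.1 and Bowtie2 2.3.5.1 for alignment tools and featureCounts 2.0.0, next to SAMtools 1.9, FastQC and bcl2fastq 2.20, in no stated order. No source used here names the genome build, the strand setting or how multiply matching reads were counted. So positions are left out, and reads of overlapping antisense genes cannot be told apart: RefSeq (ARS-UI_Ramb_v3.0, names only) lists other genes, mostly non-coding, that overlap NTNG1, SLC17A6 and TSHZ2. The protein-coding one, over NTNG1, had at most 23 counts in a library, and the only non-coding one with counts here, over TSHZ2, at most 5. At totals of 12254743 to 53775720 counts, 1 CPM stood for at least 12.3 counts.

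Columns were matched to samples by their descriptions. Filtering (filterByExpr by group), TMM scaling and robust quasi-likelihood fits with 1 mean per group ran in edgeR 4.0.16 under R 4.3.3, for 7 comparisons. The tests were tried on simulated counts first. Each SE was derived from the estimate and its quasi-likelihood F (estimate size over root F). Within groups no libraries were duplicates (lowest chi-square 20.2 per degree of freedom). Log2 CPM used a prior count of 2. For likeness, 471 placeholder names took RefSeq symbols.

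Alternatives were DESeq2 1.42.0, limma-voom from limma 3.58.1, RLE factors, testing every gene, keeping genes at 1 CPM or more in at least 3 libraries, 2 replicate blocks, thinned counts, each library left out and, chosen after seeing the data, the 3 libraries at each end of the first component left out. The labels do not say whether equal replicate numbers mark a shared batch. Stress and control libraries with the same number had deviations with r of 0.241 to 0.787 across genes in 6 pairs. Pairs with unlike numbers had r of -0.668 to 0.568, so the ranges overlapped. The block was weighed for stress, where it changed no call of the 6 genes. Nothing says the pools are independent beyond holding different ewes within a region, so p-values measure the spread between pools. The 6 genes and all lists were chosen with earlier results of these data known. Named were the 6 genes, the 3 smallest p of each partner list (both of TSHZ2's relatives) and the 3 most like genes. The marker genes named were chosen after their values were seen. Some genes of the likeness ranking and the marker lists are not reported here.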

Additional observations from a re-analysis of the deposited data

How the results depend on the processing

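Over both conditions NTNG1, SLC17A6, NTS and TSHZ2 kept their call and sign in all 22 alternatives, with adjusted p-values of at most 0.0340, and none of the 6 genes changed sign in that comparison. FN1 became called with DESeq2 (-1.03), the replicate block (-1.06), the replicate block within condition (-0.99) and without the 3 libraries lowest on the first component (-0.995); with 1 library left out it ranged from -1.23 to -0.89, called without ventral control 1. Dorsal and ventral libraries of the same number did not all deviate together (r of -0.233 to 0.761), and the labels do not say whether they hold the same ewes. The replicate block lowered the SE of SLC17A6 to 0.34 in stressed ewes, against 0.72 without it, and to 0.35 in control ewes, against 0.75.

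The 6 genes gave 1 call in stressed ewes, 4 with DESeq2 and 4 with the replicate block, 0 without the 3 lowest or the 3 highest libraries, and 0 to 2 with 1 library left out. In control ewes there were 3, against 4 with DESeq2 and with either block, 2 without the 3 lowest libraries, 1 without the 3 highest and 0 to 4 with 1 left out. Over both conditions 1 library left out gave 4 to 5.

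Over all genes the 803 calls became 1558 with DESeq2, 1375 with the replicate block, 363 without the 3 highest libraries and 420 to 1091 with 1 left out. The 79 in stressed ewes became 580 with DESeq2, 29 with limma-voom, 314 with the replicate block, 0 without the 3 lowest or the 3 highest libraries (1400 tested genes had an unadjusted p under 0.05 over all libraries) and 1 to 159 with 1 left out. The 178 in control ewes became 728 with DESeq2, 440 with the replicate block, 55 without the 3 lowest and 49 without the 3 highest libraries, and 2 to 319 with 1 left out. For stress DESeq2 called 1 gene in dorsal tissue, 1 in ventral tissue and 14 over both. The lower share of region calls was 68.0% and 60.6% with DESeq2, and in stressed ewes 81.0% and 66.4%.

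None of the estimates that changed sign was called. Without the 3 lowest libraries the estimates turned to -0.051 for NTNG1 and -0.020 for FN1 under stress in dorsal tissue, 0.027 for TSHZ2 under stress in ventral tissue, -0.26 for NTNG1, 0.065 for TSHZ2 and -0.23 for FN1 under stress over both regions, 0.13 for TLE4 in the stress difference between regions and -0.00339 for LRRC4 between regions. Without the 3 highest they turned to 0.12 for TLE4 between regions in control ewes, -0.062 for TLE4 and -0.12 for FN1 under stress in dorsal tissue, 0.34 for SLC17A6 and 0.17 for FN1 in ventral tissue, -0.11 for NTS over both regions and -0.29 for FN1 in the stress difference. With limma-voom SLC17A6 and FN1 had 0.27 and 0.15 in ventral tissue, NTNG1 -0.034 over both regions and FN1 -0.00381 in the stress difference. With the replicate block these were 0.17, 0.13, -0.00387 and -0.00612, and with thinned counts NTNG1 had -0.10 over both regions. The cause was not tested.

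With 1 library left out, stress estimates in dorsal tissue ran from -0.062 to 0.18 for TLE4, -0.20 to 0.27 for FN1 and -0.071 to 0.31 for TSHZ2. In ventral tissue they ran from -0.52 to 0.82 for SLC17A6, -0.40 to 0.11 for NTS, -0.79 to 0.026 for TSHZ2, -0.00915 to 0.36 for TLE4 and -0.44 to 0.25 for FN1. Over both regions they ran from -0.19 to 0.16 for NTNG1, -0.066 to 0.21 for NTS, -0.33 to 0.081 for TSHZ2 and -0.18 to 0.17 for FN1, and the stress difference from -0.30 to 0.072 for TLE4 and -0.16 to 0.53 for FN1. Between regions TLE4 ran from -0.24 to 0.12 in control ewes, LRRC4 from -0.00864 to 0.17 and TLE3 from -0.27 to 0.037. Each of the 6 genes had at least 26 counts in every library. With 3 pools of 2 ewes a group, the 95% intervals of the stress estimates stay wide.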
